A study of Homo sapiens with 12 samples.

Results

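HaCaT cells carrying a short hairpin RNA against MLL1 (shMLL1) were compared with HaCaT cells carrying a control hairpin (shControl). HaCaT is an established line of human keratinocytes. The shControl cells are labelled WT and the shMLL1 cells as an MLL1 knockdown. Each of them was sequenced untreated, after 24 h with 100 µM hydrogen peroxide (H2O2) and after 24 h with 25 µg/mL cerium oxide (CeO2) nanoparticles, so 3 shMLL1 libraries stood against 3 shControl libraries, 6 of the 12 libraries of the series. The other 6 libraries came from cells with hairpins against UTX (gene KDM6A) or NRF2 (gene NFE2L2) under the same treatments. They served as a second comparison, in which shMLL1 is not set against shControl. All 12 libraries were fitted together, so the shControl libraries still entered the scaling, the treatment terms and the spread of this comparison. That comparison is with the mean of both hairpins, so it can join a difference from one hairpin with none, or the opposite, from the other. Gene names were read only in 5 stretches of chromosomes 5, 9, 11, 18 and 19 and on the mitochondrial chromosome, where names and reads match. These held 1587 of the 61498 entries of the count tables, of which 488 passed the filter on low counts (at least 1 CPM, the count scaled to the library's total, in at least 3 libraries), against 10800 over all entries.

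MLL1, the product of KMT2A, is a methyltransferase that places methyl groups on lysine 4 of histone H3, a mark of active promoters and enhancers. It works in a complex with WDR5, RBBP5, ASH2L and DPY30, and binds unmethylated CpG-rich DNA through its CXXC domain. It is best known for keeping HOX genes active in development and as a fusion partner of other genes in leukaemia.

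Each derivative was a single line, so the effect of silencing MLL1 and other differences between the derivatives, DNA content included, cannot be told apart. The labels do not say that the 3 libraries of a derivative came from separate cultures, and each had its own treatment, so p-values measure the spread among these libraries after a term for treatment. In these bulk libraries fewer cells of a kind and less RNA per cell cannot be told apart. Total counts were 6873380 to 7342021 in shControl and 5667417 to 7118843 in shMLL1. The KMT2A entry (chromosome 11, 118436464 to 118526832, GRCh38) was at 508 CPM in untreated, 472 in H2O2-exposed and 473 in CeO2-exposed shControl cells, and at 32.8, 96.4 and 34.6 CPM in shMLL1 cells; values below keep this order of treatments. It lies outside the stretches where names match, so these values do not check the label. Of the 79 coding ribosomal protein genes listed outside the stretches only 7 reached 30 CPM, against 5 of 5 inside them. Of 6 epidermal marker genes inside the stretches, AQP3 held 197 to 291 CPM, PKP3 1660 to 2530 CPM and CD151 710 to 1140 CPM in the 6 libraries, and ACER1 had no count. Of 6 markers of other cell types, SLC45A2 (melanocytes), CD72 (B cells) and TEK (endothelium) had at most 2 counts summed over the 3 libraries of either derivative. PAX5 (B cells) had 6 in shControl and 4 in shMLL1, and S1PR4 (lymphocytes) 30 and 32. IL7R (lymphocytes) was well above these, at 433 to 607 CPM in the 6 libraries.

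Of the 488 matched entries, 127 passed an adjusted p of 0.05 in edgeR's quasi-likelihood test, 29 higher and 98 lower in shMLL1. Over all 10800 entries 12.2% passed, 5.38% higher and 6.84% lower, so the matched entries were called lower more often (20.1%) and higher about as often (5.94%). Of the 98 lower entries, 66 lie in the first 40 Mb of the short arm of chromosome 5. Elsewhere in the matched stretches 28 of 380 entries were higher and 32 were lower. Leaving out the untreated shControl library gave 70 higher matched entries in place of 29. The count was 16 or 19 without the H2O2 or the CeO2 shControl library, and 11 to 14 without any 1 of the shMLL1 libraries. The untreated shControl library stood apart in gene length: its median deviation from the 12-library mean was 0.54 higher (log2) for 75 coding genes with transcripts under 2500 bases than for 38 with transcripts over 5000 bases, against -0.22 to 0.16 in the other 5 libraries compared.

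**Figure D1:**
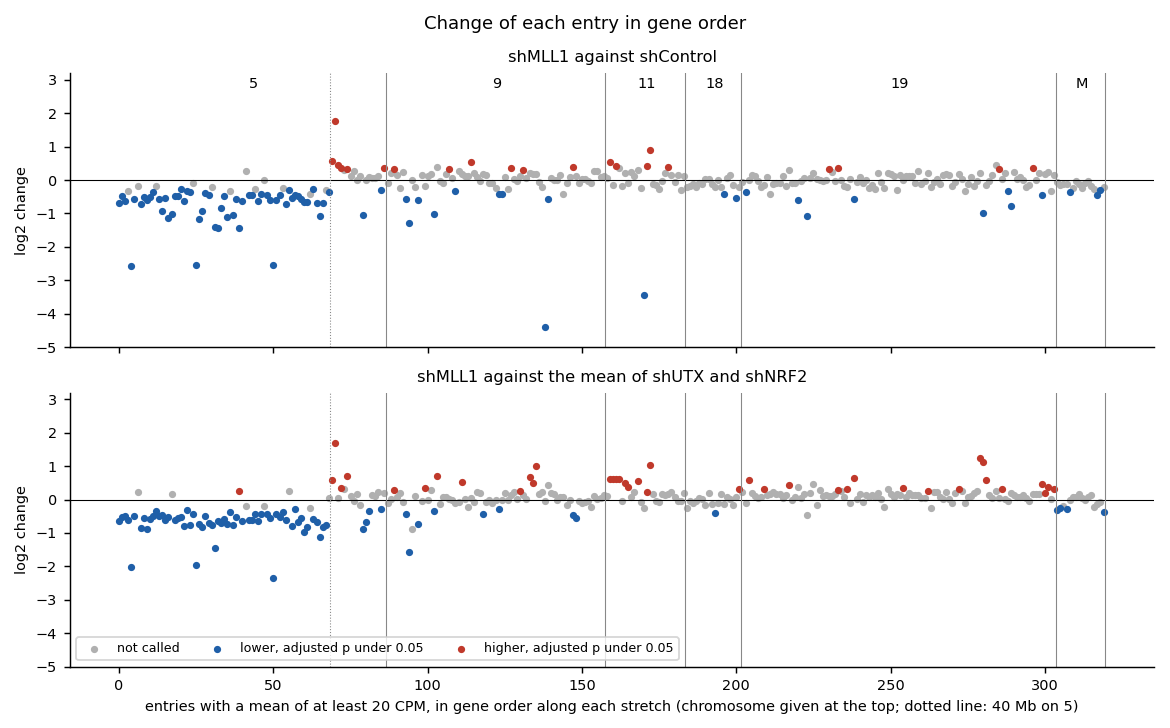
Each point is an entry with a mean of at least 20 CPM; the x axis is its rank in gene order along the stretches of chromosomes 5, 9, 11, 18, 19 and M, and the y axis its fitted log2 change. The 69 entries left of the dotted line at 40 Mb of chromosome 5 lie almost all below 0 in both comparisons (68 against shControl and 64 against the other hairpins), while of the 251 entries to the right 128 lie below 0 against shControl, all 16 of M among them, and 75 against the other hairpins.

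The genes of distal 5p were lower as a block. In this stretch, from its start at SDHA to 40 Mb, 66 of 108 tested entries fell, 1 rose and 41 did not pass. Of the 69 entries with a mean of at least 20 CPM, 68 were below 0, with a median log2 change of -0.53 (quartiles -0.70 and -0.37), which is 69.3% of the shControl level. The median over all entries of that abundance was 0.03. The 40 Mb boundary was placed after the values were seen, so the block is described without a test.

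The block was also low in the comparison with the other hairpins. Against the mean of shUTX and shNRF2, 72 of the 108 entries fell and 1 rose, where 6.13% of all entries were lower and 5.75% higher. The median log2 change of the 69 entries was -0.58, or 66.7% of the level in the other hairpins. Within treatments the median log2 ratio to shControl was -0.57 untreated, -0.50 with H2O2 and -0.48 with CeO2. The same ratios to the other hairpins were -0.56, -0.55 and -0.58. The block was low in each of the 3 treatments in both comparisons. In the 5 Mb windows with at least 4 such entries the median ran from -0.85 to -0.46. The untreated shControl library made little difference here, with 70 entries lower without it.

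**Figure D2:**
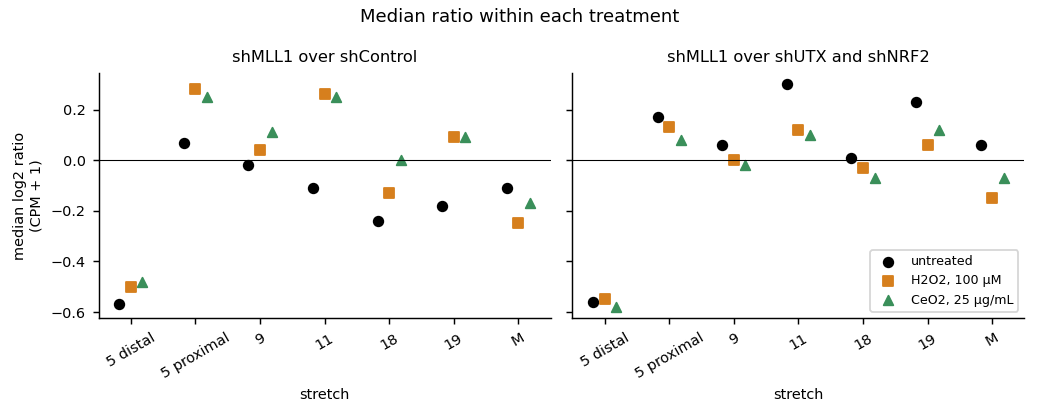
Each symbol is the median log2 ratio, on CPM + 1, of the entries with a mean of at least 20 CPM in a stretch (x axis) within 1 treatment; the left panel sets shMLL1 over shControl and the right panel over the mean of shUTX and shNRF2. Distal 5p lies between -0.58 and -0.48 in all 6 ratios, and each other stretch lies between -0.25 and 0.30.

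The block ended before the proximal part of the arm. FYB1 (39105255 to 39274528), an adaptor protein of immune cells, was still lower than in shControl (log2 -0.37 ± 0.08 SE, edgeR adjusted p = 0.00694) but not lower than in the other hairpins (0.05 ± 0.07, adjusted p = 0.745). This gene was chosen after its values were seen, so it does not place the end of the fall. From TTC33 (40512333) on, 7 of 29 tested entries rose (24.1%, against 5.38% over all entries) and 2 fell (6.9%, against 6.84%). The median of the 18 with a mean of at least 20 CPM was 0.12. By the chromosome under which entries are listed, without reading names, chromosome 22 was also low: 82 of its 138 entries of that abundance were lower than in shControl, 3 were higher and the median was -0.41. Against the other hairpins 80 were lower and 1 was higher, with the same median of -0.41. Over all 10800 entries, which include less abundant ones, 6.84% were lower than in shControl and 6.13% lower than in the other hairpins. The medians of the other 22 chromosomes (5 taken whole) ran from -0.07 to 0.14 against shControl.

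The called genes with the highest counts in distal 5p were TARS1, CCT5 and SLC1A3, while ZFR, at 671 to 788 CPM in the 6 libraries, was not called. TARS1, the threonyl-tRNA synthetase, held 2440, 2420 and 1940 CPM in shControl (untreated, H2O2, CeO2) and 1600, 1440 and 1470 CPM in shMLL1, without overlap (log2 -0.59 ± 0.08 SE, edgeR adjusted p = 0.000213). Values of the 3 and 3 libraries did not overlap for 24.1% of all entries. CCT5, a subunit of the chaperonin that folds actin and tubulin, fell by 0.38 (adjusted p = 0.00614, and 0.051 without the H2O2 shMLL1 library). SLC1A3, a glutamate and aspartate transporter, fell by 0.56 (adjusted p = 0.000368). The chromatin genes BRD9, a subunit of a SWI/SNF complex, and NIPBL, the cohesin loader, fell by 0.71 and 0.65. SDHA, the flavoprotein of respiratory complex II, fell by 0.70 and NDUFS6, a subunit of complex I, by 0.58, a call lost without any 1 shMLL1 library (adjusted p up to 0.0761). DROSHA, which cuts primary microRNAs, fell by 0.45.

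LIFR and OSMR, receptors of the interleukin-6 cytokine family, lie together at the proximal end of the block, and both were lower. LIFR, the receptor of leukaemia inhibitory factor, held 88.9, 116 and 140 CPM in shControl and 47.2, 56.3 and 58.4 CPM in shMLL1 (log2 -1.09 ± 0.14 SE, edgeR adjusted p = 8.87e-05). OSMR, the oncostatin M receptor, fell by 0.70 (adjusted p = 0.000155). Both were also lower than in the other hairpins (-1.13 and -0.81). IL7R, the interleukin-7 receptor, fell by 0.29 against shControl (adjusted p = 0.0468) and was at 0.25 against the mean of the other hairpins (adjusted p = 0.0519), above shUTX (222 to 283 CPM) and below shNRF2 (548 to 619 CPM). Against shControl it was a call that ended when either exposed control or any 1 of the shMLL1 libraries was left out (adjusted p up to 0.232). In all, 4 of 5 tested genes of the cytokine receptor list fell, all 4 in distal 5p, and IL11RA on chromosome 9 did not pass (-0.48, adjusted p = 0.253). Over all entries 6.84% were lower.

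Several genes were lower than the rest of the block by a wide margin. ADAMTS12, a secreted metalloprotease of the extracellular matrix (33523535 to 33892192), held 152, 239 and 222 CPM in shControl and 31.0, 34.5 and 38.2 CPM in shMLL1, which was 17.1% of the shControl level (log2 -2.55 ± 0.14 SE, edgeR adjusted p = 3.56e-08). SEMA5A, a transmembrane semaphorin of axon guidance (9035026 to 9546075), held 161, 230 and 270 CPM in shControl and 31.7, 45.9 and 36.7 CPM in shMLL1 (log2 -2.53 ± 0.14, adjusted p = 3.56e-08). No shMLL1 library reached any shControl library for either gene. Both were also lower than in the other hairpins (-2.35 and -1.97). DAP, a mediator of interferon-induced cell death and a brake on autophagy, held 191, 165 and 148 CPM in shControl and 65.7, 66.1 and 58.5 CPM in shMLL1 (log2 -1.40 ± 0.09, adjusted p = 1.73e-07). It was lower by a like amount against the other hairpins (-1.46, adjusted p = 7.34e-08). SLC9A3-AS1, an antisense transcript at SLC9A3, fell by 2.56, and since the sources used here do not say whether counting was stranded, its reads cannot be told apart from those of SLC9A3.

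Other genes of this group were the axonemal dynein DNAH5 (-1.44), the phosphate transporter ANKH (-1.10), the long noncoding RNA SNHG18 (-1.18) and the unnamed transcript ENSG00000248994 (-2.03), each lower in the other comparison too. The fall of DNAH5 against the other hairpins (-0.64) turned to 0.10 once a trend of counts with transcript length was removed. The homeobox genes IRX4 (-0.93), IRX1 (-1.02) and IRX2 (-0.54) and the transcript IRX2-DT beside IRX2 (-1.15) form a cluster of transcription factors that pattern developing tissues. IRX1 did not pass against the mean of the other hairpins (0.16, edgeR adjusted p = 0.55): it held 11.7 to 16.7 CPM in shMLL1, 7.48 to 9.30 CPM in shUTX and 16.4 to 18.4 CPM in shNRF2.

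A few transcripts of distal 5p had no read in any of the shMLL1 libraries. MIR4458HG, a noncoding host transcript of a microRNA (8450743 to 8463095), had 54, 35 and 28 counts in shControl and 0 in each shMLL1 library. With 3 counts over the summed shMLL1 libraries set as the upper limit for a count of 0, it was at least 35.3-fold lower. Such limits, here and below, leave out the counting error of the shControl sum. The same transcript had 108 counts in shUTX and 107 in shNRF2. SPEF2, a gene of the sperm flagellum and motile cilia, had 19, 37 and 19 counts in shControl and 0 in each shMLL1 library, at least 22.6-fold lower, with 36 counts in shUTX and 77 in shNRF2. PRLR, the prolactin receptor, had 25 counts in shControl, 65 in shUTX and 21 in shNRF2, and 0 in shMLL1, at least 7.54-fold lower. OTULINL, a gene beside the deubiquitinase OTULIN, had 87 counts in shControl and 1 in shMLL1, a ratio of 78.8 (95% interval 13.8 to 3150, counting error only). CDH10, a cadherin, held 5.88, 7.99 and 5.29 CPM in shControl and 0.576, 0.171 and 0.150 CPM in shMLL1. MIR4458HG and OTULINL were named after their values were seen.

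The microRNA that MIR4458HG hosts was not measured; its mature sequence from RefSeq (GRCh38.p14) is shown because its seed, bases 2 to 8 in capitals, is the same as that of let-7a.
hsa-miR-4458: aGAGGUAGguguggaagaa
hsa-let-7a-5p: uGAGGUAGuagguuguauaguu
Both carry the seed GAGGUAG; levels of neither are given by these libraries.

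**Figure D3:**
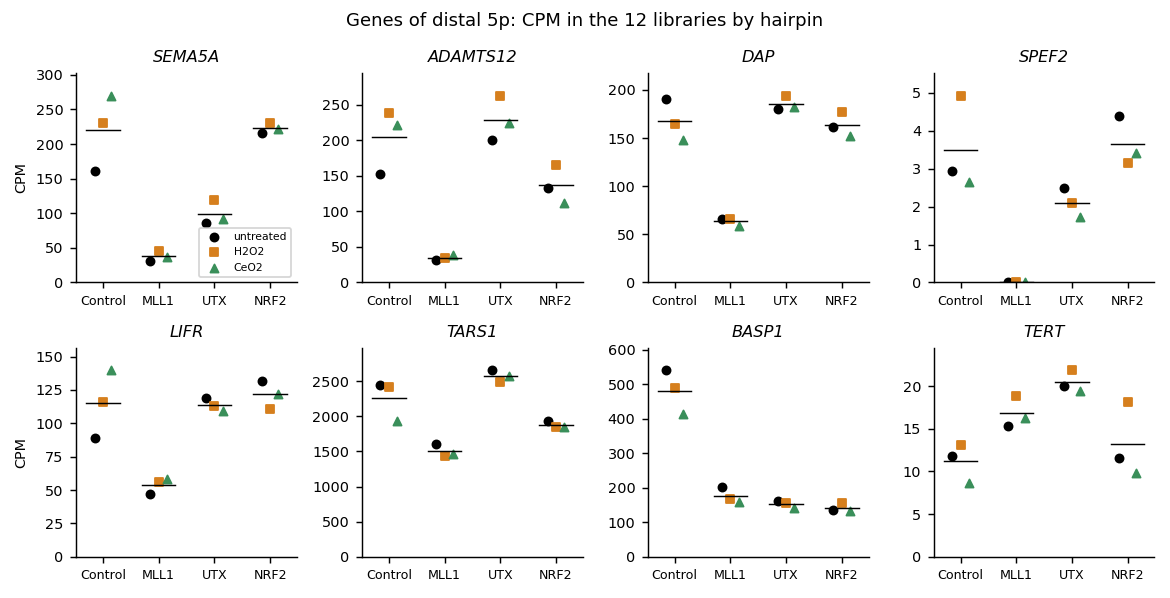
CPM (y axis, from 0) of 8 genes of distal 5p in the 12 libraries by hairpin (x axis); symbols are treatments and bars the means of 3 libraries. SEMA5A, ADAMTS12, DAP, SPEF2, LIFR and TARS1 are lowest in shMLL1, BASP1 is high in shControl alone, and TERT is not low in shMLL1.

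Not all genes of distal 5p followed the block in both comparisons. BASP1, a membrane-bound protein of neurite growth, held 542, 490 and 413 CPM in shControl and 202, 169 and 158 CPM in shMLL1 (log2 -1.45 ± 0.09 SE, edgeR adjusted p = 8.56e-08). Against the other hairpins it was higher by 0.25 (adjusted p = 0.0446), and shControl was above all other derivatives. TERT, the reverse transcriptase of telomerase (1253147 to 1295069), was the single entry that rose: it held 11.8, 13.1 and 8.63 CPM in shControl and 15.3, 18.8 and 16.3 CPM in shMLL1 (log2 0.60 ± 0.17, adjusted p = 0.0289). It did not differ detectably from the other hairpins (0.05 ± 0.14, adjusted p = 0.884). Its call was lost without the H2O2 or CeO2 shControl library and without any 1 shMLL1 library. It was also lost in DESeq2 and with no treatment term (adjusted p up to 0.175 over all alternatives). ZFR, an RNA-binding zinc finger protein, and FASTKD3, a mitochondrial RNA-binding protein, were close to 0 against shControl (-0.01 and -0.09). FASTKD3 was lower than in the other hairpins (-0.44, adjusted p = 0.000778) and ZFR was at -0.18 (adjusted p = 0.123). The calls of the long genes MARCHF6, a ubiquitin ligase, and MYO10, an unconventional myosin, were lost when the length trend was removed.

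Beyond the block, PTGER4 showed the clearest gain. It encodes the prostaglandin E2 receptor EP4 and lies at 40679498 to 40693735, proximal to the block. It held 44.2, 46.5 and 48.3 CPM in shControl and 133, 209 and 146 CPM in shMLL1, a 3.44-fold rise (log2 1.78 ± 0.12 SE, edgeR adjusted p = 2.54e-07). It was higher by 1.71 than in the other hairpins (adjusted p = 7.34e-08). CCDC152 (42756801 to 42802360) held 8.04, 10.4 and 7.10 CPM in shControl and 31.0, 29 and 25.9 CPM in shMLL1 (log2 1.75 ± 0.16, adjusted p = 5.12e-06). Its exons overlap those of SELENOP on the other strand, so the source of the reads is uncertain. HMGCS1 and NNT were the called exceptions in the other direction. HMGCS1, the cytosolic HMG-CoA synthase of cholesterol synthesis, went from 576, 491 and 519 CPM in shControl to 247, 262 and 261 CPM in shMLL1 (log2 -1.04 ± 0.09, adjusted p = 3.58e-06). It was also lower than in the other hairpins (-0.87). NNT, the mitochondrial transhydrogenase that makes NADPH, held 246, 282 and 261 CPM in shControl and 203, 218 and 215 CPM in shMLL1 (-0.31, adjusted p = 0.0148), a call lost without the H2O2 shControl library, without any 1 shMLL1 library or with the length trend removed (adjusted p up to 0.689). PRKAA1, a catalytic subunit of AMP-activated kinase, rose by 0.45 against shControl (adjusted p = 0.00636, and 0.054 without the H2O2 shMLL1 library) and was at 0.04 against the other hairpins (adjusted p = 0.815).

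Genes of innate immunity were higher or did not pass. Of 7 tested genes of the interferon and innate list, IRF7, IFITM1 and TICAM1 rose and none fell, with a list median of 0.35. Over all entries 5.38% were higher. IRF7, the transcription factor of type I interferon induction, held 84.0, 49.3 and 59.7 CPM in shControl and 125, 113 and 116 CPM in shMLL1 (log2 0.89 ± 0.14 SE, edgeR adjusted p = 0.000795). IFITM1, an interferon-induced membrane protein, held 297, 191 and 218 CPM in shControl and 313, 322 and 311 CPM in shMLL1 (log2 0.43 ± 0.12, adjusted p = 0.0225), and its exons overlap IFITM2 on the same strand. Against the mean of the other hairpins 6 of the 7 were higher, among them RIGI, a sensor of viral RNA, at 0.72 and IFITM3 at 0.62. For the IFITM genes and RIGI it was shUTX that was low. IFITM1 held 123 to 132 CPM in shUTX and 328 to 355 CPM in shNRF2, which was above every shMLL1 library. IFITM2 was likewise higher in shNRF2 (303 to 308 CPM) than in shMLL1 (211 to 251 CPM), and IFITM3 (2150 to 2200 against 2160 to 2460 CPM) and RIGI (46.8 to 57.1 against 51.4 to 67.4 CPM) overlapped between them. IRF7 was above both hairpins in every library. The calls of IFITM1 and TICAM1 against shControl ended when either exposed control or any 1 of the shMLL1 libraries was left out (adjusted p up to 0.137 and 0.143).

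The locus of cell cycle inhibitors on chromosome 9 was lower. CDKN2B, which encodes the CDK4 and CDK6 inhibitor p15, held 88.0, 99.0 and 72.0 CPM in shControl and 36.7, 41.0 and 29.2 CPM in shMLL1 (log2 -1.28 ± 0.10 SE, edgeR adjusted p = 1.04e-06). It was also lower than in the other hairpins (-1.58, adjusted p = 7.34e-08). CDKN2A, its neighbour encoding p16 and ARF, held 304, 194 and 171 CPM in shControl and 164, 149 and 132 CPM in shMLL1 (log2 -0.58 ± 0.15, adjusted p = 0.0187), a call lost without any 1 shMLL1 library (adjusted p up to 0.0958). CDKN2B-AS1, on the opposite strand of this locus, did not pass (-0.43, adjusted p = 0.166). ACO1, the cytosolic aconitase that also acts as an iron sensor, fell by 1.02 (adjusted p = 1.73e-06) and was also lower than in the other hairpins (-0.34).

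CA9 and MIR210HG, both known as targets of hypoxia-inducible factors, had the largest falls against shControl among the called entries outside distal 5p. CA9, which encodes the membrane carbonic anhydrase IX (chromosome 9, 35673856 to 35681159), held 59.1, 44.9 and 40.8 CPM in shControl and 2.74, 1.71 and 2.24 CPM in shMLL1, a 21.2-fold fall (log2 -4.41 ± 0.25 SE, edgeR adjusted p = 4.47e-08). MIR210HG, the host transcript of miR-210 (chromosome 11, 565660 to 568457), held 52.1, 40.9 and 34.9 CPM in shControl and 4.61, 3.76 and 3.29 CPM in shMLL1 (log2 -3.44 ± 0.19, adjusted p = 4.46e-08). Both were low in every derivative but shControl: CA9 held 0.575 to 1.42 CPM in shUTX and 3.82 to 6.34 CPM in shNRF2, and MIR210HG 1.73 to 2.98 and 8.77 to 11.1 CPM. Against those hairpins neither differed detectably (CA9 -0.04 ± 0.37, adjusted p = 0.967; MIR210HG -0.26 ± 0.22, adjusted p = 0.523). Of the 4 genes of the hypoxia list KDM4B, a histone H3 lysine 9 demethylase, also fell (-0.34), and lost the call when the length trend was removed or any 1 shMLL1 library was left out. LONP1 did not pass (-0.16, adjusted p = 0.332).

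The 250 bases before the RefSeq start of both genes are shown (GRCh38.p14) because the 2 transcripts moved together. The GENCODE entry of CA9 begins upstream of the RefSeq start, so the end of its window, with the marked letters, lies inside that entry. Capitals mark ACGTG, a form of the core letters bound by hypoxia-inducible factors, or its reverse complement CACGT. Other forms, such as GCGTG, were not marked or counted.
CA9, chr9:35673678-35673927, plus strand: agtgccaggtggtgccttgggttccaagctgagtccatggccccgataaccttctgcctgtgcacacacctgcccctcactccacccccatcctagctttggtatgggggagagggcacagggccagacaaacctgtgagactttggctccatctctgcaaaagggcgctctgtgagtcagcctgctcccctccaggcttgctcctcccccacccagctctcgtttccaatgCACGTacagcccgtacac
MIR210HG, chr11:568458-568707, minus strand: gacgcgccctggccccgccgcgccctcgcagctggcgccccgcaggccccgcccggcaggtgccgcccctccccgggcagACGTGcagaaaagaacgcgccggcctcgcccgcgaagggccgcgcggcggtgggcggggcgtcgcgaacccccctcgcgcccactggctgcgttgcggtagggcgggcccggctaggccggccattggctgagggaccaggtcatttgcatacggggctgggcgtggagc
Each window held the marked letters once, at -18 from the RefSeq start of CA9 and at -170 from that of MIR210HG. Of 35116 RefSeq windows of this length, 18.5% held them on either strand, so a match is a description and not a site.

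**Figure D4:**
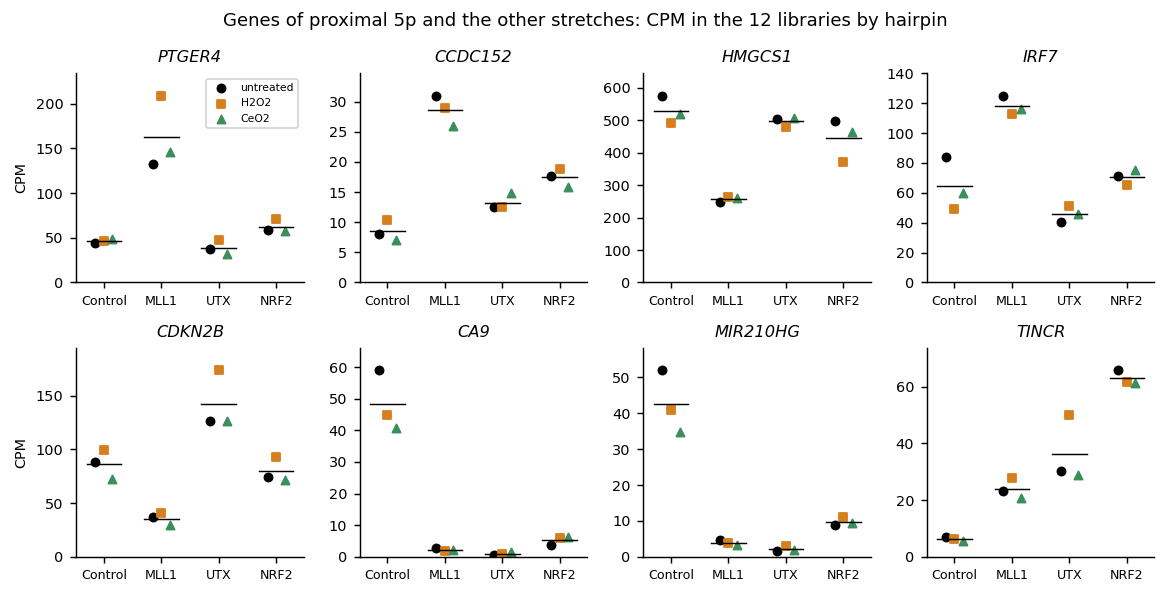
CPM (y axis, from 0) of 8 genes outside distal 5p in the 12 libraries by hairpin (x axis); symbols are treatments and bars the means of 3 libraries. PTGER4, CCDC152 and IRF7 are highest and HMGCS1 and CDKN2B lowest in shMLL1, while CA9 and MIR210HG are high in shControl alone and TINCR is lowest in shControl.

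Genes of the epidermis and of cell guidance also changed, in ways that depended on the comparison. TINCR, a transcript of differentiating epidermis on chromosome 19, held 6.96, 6.40 and 5.43 CPM in shControl and 23.3, 27.7 and 20.8 CPM in shMLL1 (log2 1.93 ± 0.18 SE, edgeR adjusted p = 7.71e-06). It was lower than in the other hairpins (-1.0, adjusted p = 0.000182). ACER2, an alkaline ceramidase, rose by 0.87 (adjusted p = 0.00048), and AQP3, PKP3 and CD151 did not pass. Of these 5 tested epidermal genes only TINCR passed against the other hairpins, so ACER2 did not. All 6 tested genes of the axon guidance and neurite list fell, 3 of them in distal 5p (SEMA5A, TRIO and BASP1) and 3 on chromosome 19 (FSD1, PTPRS and SEMA6B), with a list median of -1.10. Over all entries 6.84% were lower. The list was chosen with earlier results of these data known, so its count is a description and not a test. Against the other hairpins the median was -0.17. SEMA6B, a transmembrane semaphorin, held 97.6, 71.4 and 82.5 CPM in shControl and 46.2, 39.6 and 40.6 CPM in shMLL1 (log2 -0.99 ± 0.11, adjusted p = 3.34e-05), and was at 1.13 against the mean of the other hairpins (adjusted p = 6.42e-06). It was higher than in shUTX (7.02 to 8.63 CPM) but overlapped with shNRF2 (44.0 to 51.5 CPM). PTPRS, a receptor tyrosine phosphatase, fell by 0.77 against shControl, from 495 to 617 CPM down to 291 to 338 CPM. It lay between the other hairpins, with 110 to 129 CPM in shUTX and 577 to 671 CPM in shNRF2.

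Genes tied to MLL1 by its leukaemia fusions did not pass against shControl. DOT1L, the H3 lysine 79 methyltransferase, was at 0.08 ± 0.08 (SE, edgeR adjusted p = 0.576), MLLT1 at 0.18 ± 0.07 (adjusted p = 0.11) and MLLT3 at 0.16 ± 0.19 (adjusted p = 0.652). MLLT1 was higher than in the other hairpins (0.20, adjusted p = 0.0438), and the other two did not pass there either. The counts of the next lists stand beside 5.38% higher and 6.84% lower over all entries. Of 14 tested chromatin genes PHRF1 rose (0.41) and BRD9, NIPBL and KDM4B fell, the first 2 of these in distal 5p. Of 20 tested transcription factors none rose and 5 fell: the 3 IRX genes, RFX2, a factor of cilia genes (-0.46), and TLE2, a corepressor (-1.08, adjusted p 0.0633 without the untreated shMLL1 library). RFX2 was higher than in the other hairpins by 0.46.

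All 16 tested entries of the mitochondrial chromosome were below 0 against shControl, with a median of -0.17. Of these, 3 passed (18.8%, against 6.84% lower over all entries), and each of these calls was lost without at least 1 library. MT-CO1, a core subunit of complex IV, fell by 0.36 (edgeR adjusted p = 0.00562), MT-ND6 of complex I by 0.45 (adjusted p = 0.00636) and MT-CYB of complex III by 0.31 (adjusted p = 0.0231). MT-ND6 lost the call without the H2O2 shMLL1 library (adjusted p = 0.06), MT-CO1 without the H2O2 or the CeO2 one. MT-CYB lost it when the length trend was removed or any 1 exposed library was left out. Against the other hairpins none of these 3 passed, and the median of the 16 was -0.04. There 4 other entries were lower (25.0%, against 6.13% over all entries): MT-RNR1 (-0.32), MT-RNR2 (-0.26), MT-ND2 (-0.29) and MT-TP (-0.37). The mitochondrial share of all counts was 9.15% to 10.01% in shControl and 7.58% to 8.99% in shMLL1. Of 8 nuclear respiratory chain genes 2 fell, SDHA and NDUFS6, both in distal 5p.

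Smaller gains were spread over the other lists, where 5.38% of all entries were higher and 6.84% lower. NOL6, a ribosome assembly factor, rose by 0.55 (edgeR adjusted p = 0.000195), and RPL37 by 0.35 (adjusted p = 0.047), a call that RLE or upper-quartile scaling removed. Of 6 tested glycosylation genes GNE (0.40), PIGO (0.30) and FUT3 (0.72) rose and B4GALT1 fell (-0.32). GNE, the key enzyme of sialic acid synthesis, was at -0.46 against the mean of the other hairpins, with 169 to 202 CPM in shUTX and 85.9 to 93.4 CPM in shNRF2 against 86.4 to 98.5 CPM in shMLL1. Of 12 tested proteostasis genes 4 fell, all in distal 5p, and DNAJA1, an HSP70 co-chaperone, rose by 0.34. SLC25A22, a mitochondrial glutamate carrier, rose by 0.38 and overlaps PANO1 on the other strand. The calls of RPL37, PIGO, FUT3, DNAJA1 and SLC25A22 were lost without any 1 shMLL1 library (adjusted p up to 0.195, 0.1, 0.14, 0.103 and 0.0755 over all alternatives), that of GNE without the untreated one (0.0699) and that of B4GALT1 without the CeO2 one (0.0794).

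The remaining lists held few calls outside distal 5p. Over all entries 12.2% passed, 5.38% higher and 6.84% lower, so a few calls in a list are not read as a result about it. Of 8 tested cilia genes 4 fell: DNAH5, SPEF2 and CEP72, a centrosome protein, in distal 5p, and RFX2, with a list median of -0.51 against 0.01 over all entries. Of 15 cell cycle and DNA repair genes TERT rose and 5 fell, among them TRIP13, a checkpoint ATPase (-0.51), RAD1, a clamp of the DNA damage response (-0.44), and SKP2, a ubiquitin ligase subunit that degrades p27 (-0.44), all 3 in distal 5p. Of 14 cytoskeleton genes RAI14, MYO10 and TPM2 fell, and TPM2, on chromosome 9, lost the call without any 1 shMLL1 library (adjusted p up to 0.176). Of 14 genes of RNA polymerase II and RNA processing DROSHA and MED10 fell, MED10 with an adjusted p of 0.0527 without the untreated shMLL1 library, and the list median was -0.01. CDH10 was the single call of 7 adhesion genes and ADAMTS12 of 8 matrix and protease genes. Of 11 ribosome genes NOL6 and RPL37 rose and NSUN2 fell, and MRPS30 alone of 8 genes of mitochondrial ribosome, import and quality control rose (0.35). The calls of NSUN2 and MRPS30 were lost without any 1 shMLL1 library and without the H2O2 shControl library, that of MRPS30 also without the CeO2 one (adjusted p up to 0.133 and 0.109).

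**Figure D5:**
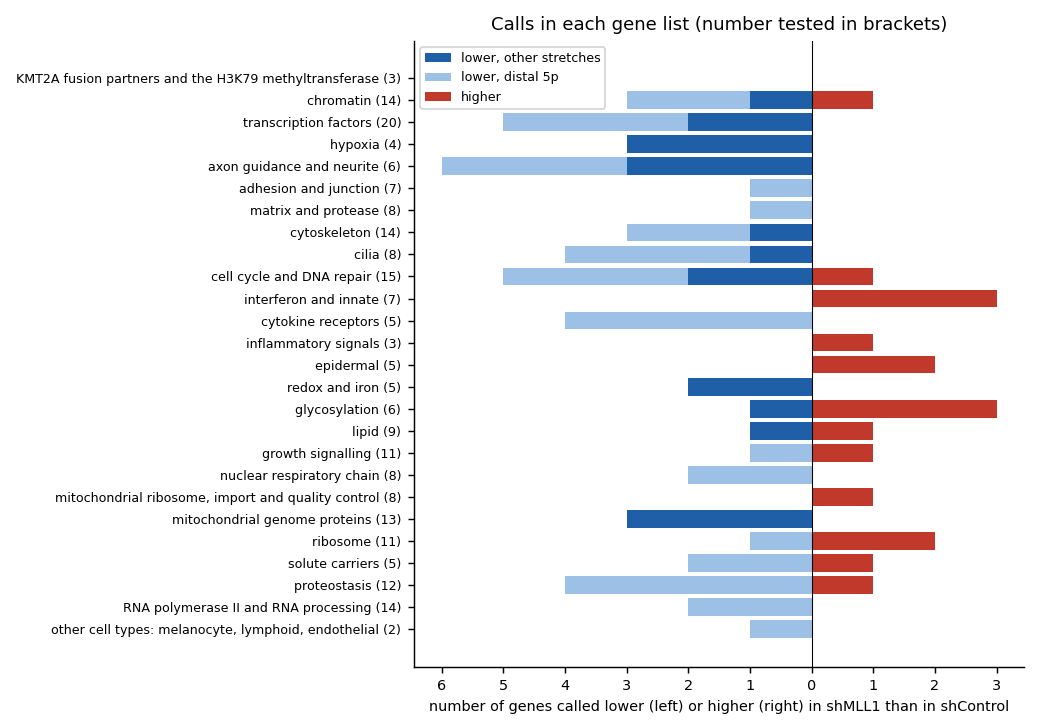
Bars give, for each gene list (y axis, number tested in brackets), how many genes passed the adjusted p of 0.05 in shMLL1 against shControl, lower to the left and higher to the right (x axis, number of genes). The pale part counts lower genes of distal 5p, which holds all 4 lower cytokine receptors and proteostasis genes and none of the 3 lower hypoxia genes.

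The promoters of changed genes outside distal 5p can be set beside the CpG preference of MLL1. In the 250 bases before the start, the median number of CpG dinucleotides was 26.5 for 22 lower genes (quartiles 18.25 and 32.5). It was 16 for 21 higher genes (8 and 26) and 24 for 220 genes that did not pass (15 and 31), so the ranges overlap. These were 22 of the 32 lower and 21 of the 28 higher entries outside distal 5p. Among 77 tested genes of distal 5p the median was 27, and over all 35116 RefSeq windows it was 11. These are descriptions of RefSeq windows, with no test and no measure of methylation.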

How the data were processed

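Libraries were made with a TruSeq RNA-seq kit, per the labels' protocols; how counting treated strand is not stated there. The submitters' processing notes name GRCh38 and the tools HTSeq 0.11.1, HISAT2 2.2.1, Trimmomatic 0.39 and SAMtools 1.12. The authors deposited raw read counts by Ensembl identifier, in one table for each exposure; the untreated columns of the H2O2 table were used, which differ from those of the other table in 1 cell. Of 61498 identifiers, 61399 matched a name and 58298 the GENCODE 29 annotation, which gave positions and types. A gene past the filter had at least 1 CPM in 3 libraries.

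All 12 libraries were fitted in 1 model with terms for derivative and treatment (6 residual degrees of freedom) in edgeR 4.0.16 (R 4.3.3, TMM scaling, quasi-likelihood test, Benjamini-Hochberg adjustment over all 10800 entries). Log2 changes carry SE = change divided by the square root of F. CPM values are scaled by TMM. Within-treatment ratios used a pseudocount of 1 CPM. The text names the 15 highest and 15 lowest called matched entries (mean of at least 5 CPM over the 6 libraries and the same sign in all treatments), the 10 most abundant called ones, and members of 26 gene lists, with examples. Entries outside this rule, such as FYB1, ZFR, FASTKD3, MIR4458HG and OTULINL, were chosen after their values were seen. Members, stretches and lists were chosen with earlier results of these data known. Alternatives were RLE and upper-quartile scaling, other filters, DESeq2 1.42.0, limma-voom 3.58.1, fits to the libraries compared, no treatment term, the other table's untreated counts, removal of a length trend, and each library left out in turn. Counting intervals cover counting error only, and the limit of 3 counts covers only that of the shMLL1 sum.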

Additional observations from a re-analysis of the deposited data

How the results depend on the processing

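The fall of distal 5p held under every alternative run: 50 to 70 entries lower, with a median of -0.56 to -0.50 (log2) except -0.35 with the length trend removed without centring, a fit that moved the median of all entries to 0.19. That fit called 2358 of all entries against shControl and 2141 against the other hairpins, and 104 matched entries higher. A centred length trend, chosen after seeing the data, called 1496 and 1960. Fitting only the libraries compared called 2389 against the other hairpins. Leaving out each library in turn gave 667 to 1941 of all entries against shControl, 588 to 1045 against the other hairpins, and 11 to 70 matched entries higher against shControl. The signs of MARCHF6 (0.01) and MYO10 (0.02) against shControl, and of DNAH5 (0.15), NNT (0.01), ACO1 (0.03) and MYO10 (0.08) against the other hairpins, turned with the uncentred length trend, as did those of DNAH5 (0.10) and MYO10 (0.03) with the centred one; the cause was not tested. Of 82 named genes 47 lost the call against shControl under none of the 17 alternatives, and 16 lost it only when a library was left out. An alternative that did not test a gene counts as no loss, as with PRLR and SPEF2 under the filter at 5 CPM. No paired analysis was possible because the labels give no replicate numbers; treatment is a term of the fit. Depth limits what can be called among entries of a few CPM. PRLR and DAB2, both called lower, rested on summed counts of 25 and 42 in shControl and 0 and 6 in shMLL1.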

Other observations

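Some matched entries outside the rule for named genes, chosen after their values were seen, also differed. MOB3A, a member of the MOB kinase regulator family on chromosome 19, was lower than in shControl (log2 -0.58, edgeR adjusted p = 0.000133) and higher than in the other hairpins (0.66, adjusted p = 1.19e-05). CAAP1, a modulator of apoptosis on chromosome 9, was lower in both comparisons (-0.61, adjusted p = 0.00191, and -0.74, adjusted p = 0.000138). CARD6, a caspase recruitment domain protein beside PTGER4 and PRKAA1, was higher in both (0.32, adjusted p = 0.0378, and 0.71, adjusted p = 3.98e-05). SRD5A1, the steroid 5-alpha-reductase of skin in distal 5p, was lower in both (-0.64, adjusted p = 0.000257, and -0.79, adjusted p = 1.37e-05). On chromosome 18, 2 of 37 tested entries (5.41%) were lower than in shControl, no more than the 6.84% over all entries. They were RAB31, an endosomal GTPase (-0.42, adjusted p = 0.00475), and IMPA2, an inositol monophosphatase (-0.53, adjusted p = 0.00495). Neither differed detectably from the other hairpins. Of the matched entries 70 were lower and 12 higher in both comparisons, which share the shMLL1 libraries, and 6 changed in opposite directions. Of these, 62 of the lower and none of the higher lie in distal 5p, which leaves 8 lower and 12 higher elsewhere. Over all 10800 entries the counts were 340, 199 and 39.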
